A study of Homo sapiens with 12 samples.

Results

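The metallothioneins of human K562 cells were followed together with MTF1, the transcription factor that senses zinc, and SLC30A1, a zinc exporter. The genes were chosen by name, as the 10 of the 58735 genes in the count table that are called MT1A, MT1E, MT1F, MT1G, MT1H, MT1M, MT1X, MT2A, MTF1 or SLC30A1. K562 is an established erythroleukemia line from chronic myeloid leukemia that carries the BCR-ABL1 fusion, the target of the tyrosine kinase inhibitor nilotinib. All groups were the same cell line, so the values describe a single line and not normal erythroblasts. The 4 groups were mock DMSO (vehicle, no hemin), mock nilotinib (0.1 µM nilotinib, no hemin), hemin DMSO (vehicle, then 50 µM hemin for 24 h) and hemin nilotinib (0.1 µM nilotinib, then 50 µM hemin for 24 h), with 3 libraries each. Nilotinib or DMSO was given before hemin, which drives erythroid differentiation of these cells. Pretreatment lasted 24 h, and the library names of the mock samples carry a 0, the time of collection after treatment in the methods, against 24 h for the hemin samples. Hemin and 24 h more in culture therefore cannot be told apart in comparisons of hemin with mock. The effects of nilotinib with and without hemin were likewise measured 24 h apart. Where these effects are compared, hemin and the time since nilotinib was given cannot be told apart. The libraries were labelled biological replicates, with nothing said about whether they were cultured on separate days.

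Metallothioneins are small cysteine-rich proteins that bind zinc and copper and buffer the free ions in the cell. Most of their genes lie in a cluster on chromosome 16. MTF1 is a zinc finger protein that binds metal response elements when zinc rises, and it drives transcription of metallothionein genes and of SLC30A1. SLC30A1 sits in the plasma membrane and moves zinc out of the cell. Erythroid cells need zinc for carbonic anhydrase and for the GATA family of zinc finger factors.

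The metal response element has the core TGCACNC or TGCGCNC. The promoters of MT2A, MT1H, MT1X and SLC30A1 are shown because they hold that core, 2 to 8 times, for genes whose transcript levels were far apart. Of the 10 genes, 5 had an entry in the RefSeq table of promoters (build GRCh38.p14), and MTF1 was the other one. Each sequence runs 5′ to 3′ on the strand of the gene, from 250 bases before to 50 bases after the RefSeq transcription start, and capitals mark the cores found on either strand. They lie at chr16:56608334-56608633 (MT2A, + strand), chr16:56669564-56669863 (MT1H, + strand), chr16:56682220-56682519 (MT1X, + strand) and chr1:211579112-211579411 (SLC30A1, − strand). The RefSeq start is that of the deposited gene for MT1H and differs from it for the other genes shown.
MT2A: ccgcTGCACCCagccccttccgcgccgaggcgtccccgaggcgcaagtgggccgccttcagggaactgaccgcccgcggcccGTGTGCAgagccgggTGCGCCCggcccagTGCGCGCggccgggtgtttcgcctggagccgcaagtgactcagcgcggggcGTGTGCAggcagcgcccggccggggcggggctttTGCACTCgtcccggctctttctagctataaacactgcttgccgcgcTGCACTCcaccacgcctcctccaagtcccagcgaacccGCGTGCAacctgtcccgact
MT1H: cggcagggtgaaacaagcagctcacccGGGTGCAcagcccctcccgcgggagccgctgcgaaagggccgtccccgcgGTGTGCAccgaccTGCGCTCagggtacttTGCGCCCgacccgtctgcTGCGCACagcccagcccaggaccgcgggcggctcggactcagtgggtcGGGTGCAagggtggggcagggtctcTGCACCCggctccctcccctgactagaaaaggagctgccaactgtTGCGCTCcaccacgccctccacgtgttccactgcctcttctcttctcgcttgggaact
MT1X: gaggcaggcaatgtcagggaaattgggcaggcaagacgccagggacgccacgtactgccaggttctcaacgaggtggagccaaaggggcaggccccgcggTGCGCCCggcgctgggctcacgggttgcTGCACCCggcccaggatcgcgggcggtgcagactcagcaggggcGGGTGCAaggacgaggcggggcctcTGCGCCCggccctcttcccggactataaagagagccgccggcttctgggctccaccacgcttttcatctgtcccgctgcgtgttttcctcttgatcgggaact
SLC30A1: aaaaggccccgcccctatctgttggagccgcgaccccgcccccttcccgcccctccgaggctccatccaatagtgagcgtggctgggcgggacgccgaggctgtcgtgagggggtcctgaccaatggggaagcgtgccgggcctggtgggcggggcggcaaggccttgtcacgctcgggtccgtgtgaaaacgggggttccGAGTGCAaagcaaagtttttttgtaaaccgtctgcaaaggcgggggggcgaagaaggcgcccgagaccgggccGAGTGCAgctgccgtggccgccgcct

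The core occurred 8 times in the MT2A promoter, 8 times in that of MT1H, 4 times in that of MT1X and 2 times in that of SLC30A1. No core overlapped another. At least 1 core was present in 29.6% of all 35116 promoters of 300 bases. As many as 8 were present in 0.0199% of them, as many as 4 in 0.601% and as many as 2 in 8.60%. The MTF1 window held 0 cores, which says only that these letters are not in that window. An antioxidant response element, the core TGACNNNGC on either strand, occurred 1 time each in the MT2A, MT1X and SLC30A1 windows and in 13.3% of all promoters. These matches are letters in a sequence, and binding of a factor was not measured.

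Total counts per library ran from 33457078 to 50506990. Transcripts of the K562 markers were present in every library, with GATA1 at 130 to 399.8 CPM and HBG1 at 116 to 2273 CPM, where CPM are counts set to a common library size, scaled by TMM (trimmed mean of M values). Among markers of other cell types, CD3E, MS4A1, ALB, APOA1 and CDH1 stayed at or under 1.19 CPM, CD3D and COL1A2 reached 13.1 and 8.23 CPM, COL1A1 lay at 6.65 to 24.7 CPM and EPCAM at 27.7 to 65.5 CPM. In bulk RNA, fewer cells of a type and less RNA per cell cannot be told apart.

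MT2A was by far the most abundant metallothionein. It supplied 88.0 to 91.0% of all metallothionein counts in mock DMSO, 97.9 to 99.4% in mock nilotinib, 84.1 to 92.6% in hemin DMSO and 95.6 to 98.8% in hemin nilotinib. Of the 8 metallothioneins, MT2A had 11997 counts over all 12 libraries, MT1X 428, MT1G 190, MT1F 69, MT1E 41, MT1A 26, MT1H 14 and MT1M 0. MT2A and MT1H, with 8 cores each in the promoters above, thus had 11997 and 14 counts. Only MT2A, MT1X, MT1G, MTF1 and SLC30A1 had enough counts for the test across genes, in which 20821 genes were compared in edgeR by the quasi-likelihood F test, with p adjusted after Benjamini and Hochberg, and called at an adjusted p under 0.05. A gene can pass the count filter through the group where it is high.

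Per length, in deposited FPKM, the order of the main genes changed with treatment. The FPKM rest on the listed gene lengths, which for MT2A is 1299 bases, its whole span on the chromosome. If most MT2A transcripts are shorter than that, its level against SLC30A1 and MTF1 is understated. The order between genes within a group therefore depends on that length, while changes of 1 gene between groups do not. In mock DMSO, MT2A stood at 11.7 ± 4.01 FPKM (SD, n = 3), SLC30A1 at 5.39 ± 1.54 and MTF1 at 2.37 ± 0.396, with no overlap between their libraries. In mock nilotinib, SLC30A1 at 19.5 ± 1.90 FPKM stood above MT2A at 11.5 ± 2.94 and MTF1 at 2.06 ± 0.0881. In hemin DMSO, SLC30A1 at 14.4 ± 7.02, MTF1 at 10.8 ± 0.994 and MT2A at 10.7 ± 5.80 FPKM did not differ beyond the spread of their libraries. In hemin nilotinib, MT2A at 44.6 ± 32.2 FPKM had the highest mean, but its lowest library, at 17.4, lay within the range of SLC30A1 at 19.1 ± 2.21. MTF1 was then back at 2.86 ± 0.264 FPKM. MT1X and MT1G stayed under 2 FPKM in every library.

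**Figure D1:**
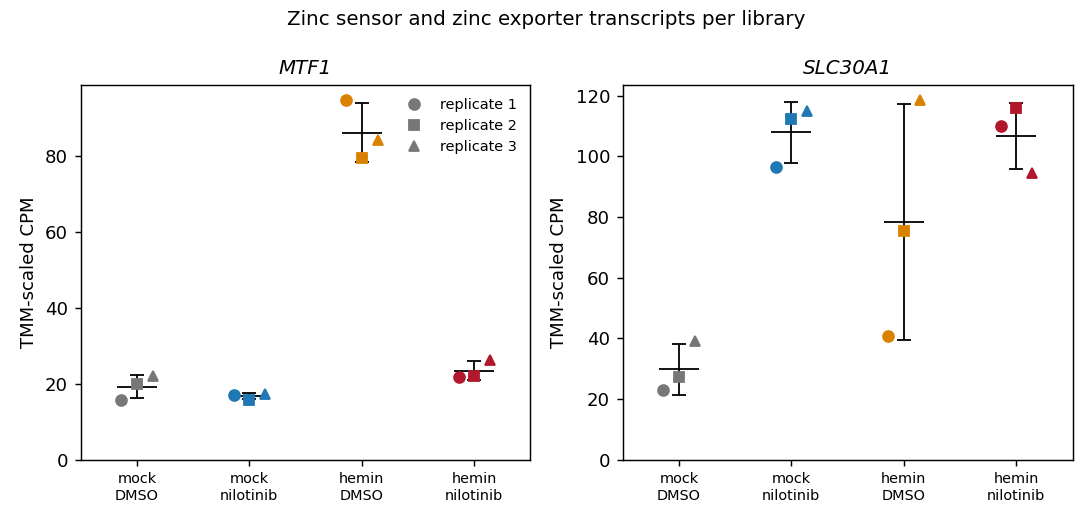
TMM-scaled CPM of MTF1 (left) and SLC30A1 (right) in each of the 12 libraries by group. Points are libraries with the shape giving the replicate number, horizontal lines are means and error bars are SD (n = 3). MTF1 is high in hemin DMSO alone, at 79.4 to 94.7 CPM, whereas SLC30A1 is lowest in mock DMSO, at 22.9 to 39.3 CPM.

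MTF1 (ENSG00000188786, GRCh38 chromosome 1, 37809567 to 37859620, − strand) rose with hemin in DMSO, and stayed close to the mock level where nilotinib had been given. Its level was 15.8, 20.1 and 21.9 CPM in mock DMSO and 17.0, 15.8 and 17.2 CPM in mock nilotinib (replicates 1, 2 and 3). In hemin DMSO it was 94.7, 79.4 and 84.2 CPM, and in hemin nilotinib 21.9, 22.2 and 26.3 CPM. The hemin DMSO libraries stood apart from all 9 others, and the mock groups overlapped each other. Hemin without nilotinib raised MTF1 4.47-fold, a log2 change of 2.16 (SE 0.147, adjusted p = 1.81e-08). With hemin present, the nilotinib libraries were 3.67-fold lower than the DMSO libraries, a log2 change of -1.87 (SE 0.146, adjusted p = 2.18e-08). Without hemin the difference was -0.21 (SE 0.143) with an adjusted p of 0.259, which does not show that the level was the same. The effect of nilotinib with hemin minus that without, the interaction, was -1.67 on the log2 scale (SE 0.203, adjusted p = 3.39e-05).

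Some of the hemin difference in MTF1 was still measured under nilotinib. The hemin nilotinib libraries, at 23.5 ± 2.50 CPM, did not overlap those of mock nilotinib, at 16.7 ± 0.760 CPM. The log2 difference was 0.49 (SE 0.144), with an adjusted p of 0.0543 that missed the threshold. With the replicate number as a block it was 0.49 with an adjusted p of 0.0458. It also passed with DESeq2 (0.48, adjusted p = 0.0305) and among genes with 10 or more counts in each library (0.52, adjusted p = 0.0385). Leaving out a library, it passed without mock DMSO replicate 1, at 0.50 (adjusted p = 0.0487), and without hemin nilotinib replicate 1, at 0.54 (adjusted p = 0.0258). In 15 of the 21 alternatives it missed the threshold, as in the main fit. Over all alternatives its adjusted p ran from 0.0214 to 0.238.

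SLC30A1 (ENSG00000170385, chromosome 1, 211571568 to 211578742, − strand) was higher in every treated group than in mock DMSO. It measured 22.9, 27.3 and 39.3 CPM in mock DMSO and 96.5, 112 and 115 CPM in mock nilotinib. In hemin DMSO it measured 41.0, 75.4 and 119 CPM, and in hemin nilotinib 109.9, 116 and 94.6 CPM. The hemin DMSO libraries were spread nearly as wide as all the groups together, with replicate 1 just above the mock DMSO libraries and replicate 3 above every nilotinib library. Nilotinib without hemin raised SLC30A1 3.62-fold, a log2 change of 1.86 (SE 0.279, adjusted p = 5.59e-05). Hemin without nilotinib raised it 2.63-fold, a log2 change of 1.39 (SE 0.275, adjusted p = 0.000493). The zinc exporter and MTF1 thus rose together with hemin, while nilotinib alone raised only SLC30A1 of the pair past the threshold.

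Adding the other agent changed SLC30A1 by less. Nilotinib with hemin gave a log2 difference of 0.45 (SE 0.270, adjusted p = 0.158) and hemin with nilotinib gave -0.02 (SE 0.269, adjusted p = 0.983). The interaction was -1.41 (SE 0.383, adjusted p = 0.0115), so the effect of nilotinib was smaller in the hemin groups than in the mock groups. Those groups also differ by 24 h. The 3 hemin DMSO libraries set the value with hemin. Without hemin DMSO replicate 3, the highest library, the difference was 0.87 (adjusted p = 0.00754) and passed, and without replicate 1 it was 0.14, over a range of adjusted p from 0.00621 to 0.597 in all alternatives.

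**Figure D2:**
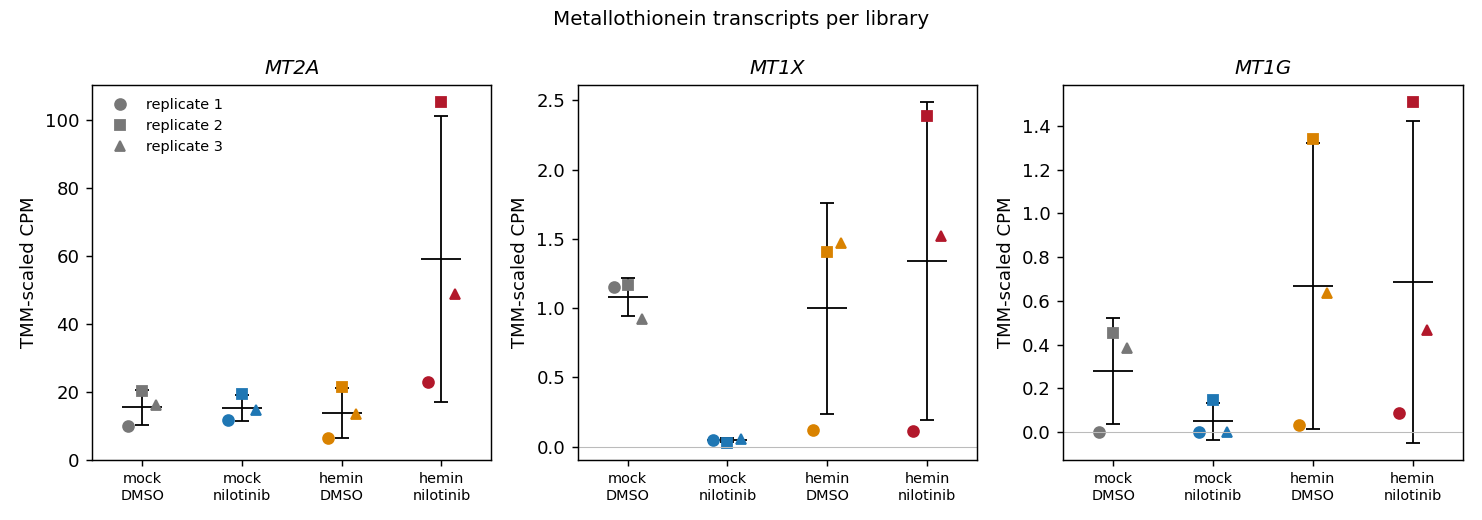
TMM-scaled CPM of MT2A, MT1X and MT1G in each of the 12 libraries by group, on a separate linear axis for each gene. Points are libraries with the shape giving the replicate number, horizontal lines are means and error bars are SD (n = 3). The 3 hemin nilotinib libraries of MT2A, at 22.9 to 105 CPM, lie above all others, and MT1X is near 0 in the 3 mock nilotinib libraries.

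MT2A (ENSG00000125148, chromosome 16, 56608199 to 56609497, + strand) was raised in cells given both agents and by neither agent alone past the threshold. It measured 9.88, 20.1 and 16.2 CPM in mock DMSO, 11.7, 19.2 and 14.6 CPM in mock nilotinib and 6.50, 21.3 and 13.6 CPM in hemin DMSO. Those 3 groups overlapped. In hemin nilotinib it measured 22.9, 105 and 48.9 CPM, so that all 3 libraries exceeded the highest of the other 9. The rise was uneven, with replicate 2 at more than 4 times the level of replicate 1.

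Nilotinib with hemin raised MT2A 4.28-fold, a log2 change of 2.10 (SE 0.459, adjusted p = 0.000829). Hemin nilotinib over hemin DMSO was 3.53-fold, 4.94-fold and 3.59-fold between the libraries numbered 1, 2 and 3. The call held without each library in turn, and the change was smallest without hemin nilotinib replicate 2, at 1.37 (adjusted p = 0.00800). Without hemin, nilotinib gave -0.02 (SE 0.445, adjusted p = 0.976), and hemin without nilotinib gave -0.16 (SE 0.447, adjusted p = 0.788). MTF1 fell where MT2A rose in this comparison.

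Hemin also raised MT2A under nilotinib, though several libraries decided that call. The rise was 3.90-fold, a log2 change of 1.96 (SE 0.456, adjusted p = 0.0219). It missed the threshold without mock nilotinib replicate 1 (1.80, adjusted p = 0.0631), 2 (2.15, adjusted p = 0.0632) or 3 (1.91, adjusted p = 0.0910) and without hemin nilotinib replicate 2 (1.21, adjusted p = 0.131), which was the highest p of all alternatives. The lowest was 6.44e-24. Leaving out a mock nilotinib library moved the log2 change by little, while leaving out hemin nilotinib replicate 2 brought it down by more than 1.5 times. The interaction was 2.12 (SE 0.634, adjusted p = 0.0193) and was 1.42 without hemin nilotinib replicate 2 (adjusted p = 0.0654, in a range up to 0.0683).

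MT1X (ENSG00000187193, chromosome 16, 56682424 to 56684196, + strand) fell with nilotinib given without hemin. Its counts were 64, 49 and 48 in mock DMSO and 2, 1 and 2 in mock nilotinib. With hemin they were 4, 44 and 58 in DMSO and 4, 87 and 65 in nilotinib. The mock nilotinib libraries lay below every other library, though hemin DMSO replicate 1 and hemin nilotinib replicate 1, at 4 counts each, were close to them. Summed over libraries and scaled for depth, mock DMSO exceeded mock nilotinib 23.3-fold (95% interval 9.80 to 72.9, counting error only), and the fitted log2 change was -4.46 (SE 1.04, adjusted p = 0.00249). Of its exon length, 18.1% overlaps AC026461.1 on the same strand, so reads there may be shared.

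Under nilotinib, MT1X was higher with hemin, and replicates 2 and 3 exceeded the mock DMSO libraries in CPM. Hemin nilotinib exceeded mock nilotinib 29.7-fold by summed counts (95% interval 12.4 to 92.6), with a fitted log2 change of 4.78 (SE 1.04, adjusted p = 0.0157). That call was lost without mock nilotinib replicate 2 (4.53, adjusted p = 0.0818) or 3 (4.92, adjusted p = 0.0694) and without hemin nilotinib replicate 2 (4.05, adjusted p = 0.0699), and adjusted p reached 0.150 at most. The interaction was 4.88 (SE 1.28, adjusted p = 0.00966). Nilotinib with hemin gave 0.42 (SE 0.706, adjusted p = 0.617) and hemin without nilotinib gave -0.10 (SE 0.705, adjusted p = 0.912).

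MT1G (ENSG00000125144, chromosome 16, 56666731 to 56668065, − strand) passed the threshold in no comparison. Its counts were 0, 19 and 20 in mock DMSO, 0, 5 and 0 in mock nilotinib, 1, 42 and 25 in hemin DMSO and 3, 55 and 20 in hemin nilotinib. Replicate 1 had at most 3 counts in every group, so the groups overlapped. The fitted log2 changes were -2.47 (SE 1.50, adjusted p = 0.198) for nilotinib without hemin and 3.80 (SE 1.41, adjusted p = 0.125) for hemin with nilotinib. With the replicate number as a block both passed, at -2.59 (adjusted p = 0.0168) and 3.83 (adjusted p = 0.0107). The latter also passed without hemin nilotinib replicate 1, at 4.31 (adjusted p = 0.0280). Over all alternatives the adjusted p ran from 0.00349 to 0.515 for the former and from 2.96e-06 to 0.441 for the latter.

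The remaining metallothioneins were at the edge of detection. MT1E (ENSG00000169715) had 5, 3 and 3 counts in mock DMSO, 0 in each mock nilotinib library, 0, 3 and 6 in hemin DMSO and 1, 17 and 3 in hemin nilotinib. Replicate 2 supplied 17 of the 21 counts in hemin nilotinib. MT1E, like MT1X and MT1G, had its fewest counts in mock nilotinib, and no fold is given at counts this low. MT1F (ENSG00000198417) had 4, 11 and 6 counts in mock DMSO, 1, 6 and 1 in mock nilotinib, 6, 10 and 4 in hemin DMSO and 0, 16 and 4 in hemin nilotinib, which overlapped. MT1A (ENSG00000205362) had 0 to 6 counts in any library and MT1H (ENSG00000205358) also 0 to 6, with 0 in each mock nilotinib library. MT1M (ENSG00000205364) had 0 counts in all 12 libraries, which allows up to 3 counts per library or 0.0540 to 0.0957 CPM. No change of MT1A, MT1F or MT1H passed the threshold when all genes with a count were fitted in edgeR, and counts this low can hide a change.

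Summed over the MT1 genes, the mock nilotinib libraries had 4, 14 and 3 counts against 75, 83 and 85 in mock DMSO. The sum was 17, 103 and 101 in hemin DMSO and 10, 178 and 95 in hemin nilotinib. For each replicate number the mock nilotinib library had the fewest MT1 counts, while MT2A in mock nilotinib overlapped mock DMSO. Because MT2A outweighed the MT1 genes, the family total was 17.04 ± 5.48 CPM in mock DMSO, 15.3 ± 3.95 in mock nilotinib, 15.9 ± 8.78 in hemin DMSO and 61.5 ± 44.4 in hemin nilotinib (SD, n = 3). Between paralogs, reads of near-identical sequence could be split, and the total does not depend on that split. No 150-base stretch of the 8 metallothioneins was shared with another gene, apart from 8.58% of those of MT1X, shared with AC026461.1.

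Replicate number moved with the metallothionein levels. MT2A was lowest in replicate 1 and highest in replicate 2 in all 4 groups. MT1G was lowest in replicate 1 in every group, tied with replicate 3 in mock nilotinib, and highest in replicate 2. MT1X was low in replicate 1 in the hemin groups but not in mock DMSO. With the replicate 1 libraries of all 4 groups left out, nilotinib with hemin changed MT2A by 2.16 (adjusted p = 2.10e-05) and hemin with nilotinib changed it by 2.19 (adjusted p = 0.000383). With the replicate number as a block in place of leaving libraries out, the changes were 2.02 (adjusted p = 2.00e-06) and 1.74 (adjusted p = 0.00110). Between same-numbered libraries of the 2 hemin groups, deviations from the group mean correlated at -0.0556 to 0.266. For the change of 2.02 a pairing of the libraries was therefore not shown. What the replicate numbers share is not given in the sources used here.

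**Figure D3:**
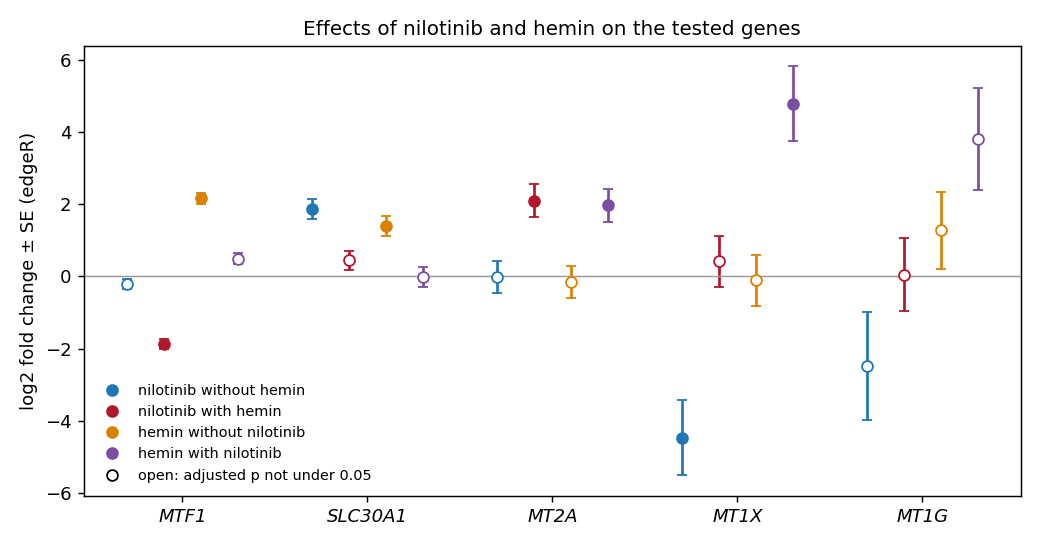
Fitted log2 fold change (edgeR) of the 5 genes tested in 4 comparisons, with SE as error bars. Filled points have an adjusted p under 0.05 and open points do not. MTF1 shows 2.16 for hemin without nilotinib and -1.87 for nilotinib with hemin, while MT2A shows 2.10 for nilotinib with hemin and 1.96 for hemin with nilotinib.

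Counted over the 5 genes tested, nilotinib with hemin raised 1 (MT2A) and lowered 1 (MTF1), where 32.4% of all genes tested were called higher and 31.8% lower. Nilotinib without hemin raised 1 (SLC30A1) and lowered 1 (MT1X), against 20.7% and 21.8% of all genes. With the replicate block it lowered 2, MT1X and MT1G. Hemin without nilotinib raised 2 (MTF1 and SLC30A1) and lowered 0, against 25.7% and 27.8%. In these 3 comparisons a call was common among all genes, and 1 or 2 of 5 is near that background. Hemin with nilotinib raised 2 (MT2A and MT1X) and lowered 0, where only 3.52% and 2.28% of all genes were called, but that count depended on the fit. With the replicate block it was 4, all but SLC30A1, where 878 of all genes were called higher. It was 0 in the libraries compared alone, where only 3 of these genes were tested and 119 of all genes were called higher. In both limma-trend fits on FPKM it was also 0, where 360 and 388 of all genes were called higher. Without mock nilotinib replicate 2 or 3 it was 0, where 144 and 149 were called higher, and it was 0 without hemin nilotinib replicate 2. The interaction was called higher for 2 (MT2A and MT1X) and lower for 2 (MTF1 and SLC30A1), against 17.1% and 13.0%. The comparisons share groups and are not independent of each other.

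**Figure D4:**
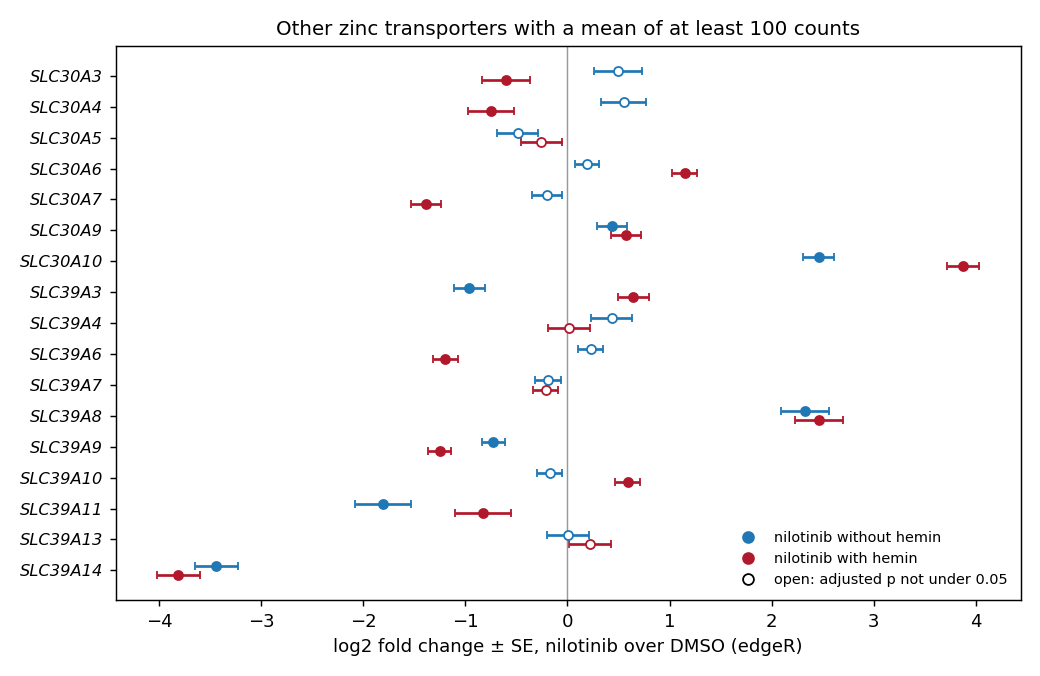
Fitted log2 fold change (edgeR) of nilotinib over DMSO for the other zinc transporters with a mean of at least 100 counts, without hemin in blue and with hemin in red, with SE as error bars. Filled points have an adjusted p under 0.05. SLC30A10 lies at 2.46 and 3.88 and SLC39A14 at -3.44 and -3.81, the ends of the scale.

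Other zinc transporters were called in both directions by nilotinib with hemin, at shares near those of all genes. Among the other SLC30 genes, which move zinc out of the cytosol, nilotinib with hemin raised 3 of 9 and lowered 3 of 9, against 32.4% and 31.8% of all genes (median log2 change -0.26, against 0.02 for all genes tested). SLC30A10, a member of the family known mainly as a manganese exporter, rose most of these, from 20.2 ± 3.42 CPM in the hemin DMSO libraries to 297 ± 32.5 CPM with nilotinib added (log2 change 3.88, adjusted p = 3.23e-11). SLC30A6 rose by 1.15 (adjusted p = 5.99e-07), and SLC30A7, which loads zinc into the Golgi, had a change of -1.39 (adjusted p = 5.73e-07). SLC30A4, an exporter into vesicles, had a change of -0.75 (adjusted p = 0.00824). Without hemin, nilotinib raised 2 of 9 (SLC30A10 by 2.46 and SLC30A9 by 0.43) and lowered 0, against 20.7% and 21.8% of all genes, with a median of 0.43 against 0.00394.

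Among the SLC39 genes, which bring zinc into the cytosol, 13 of 14 were tested, and nilotinib with hemin raised 3 and lowered 5, against the same 32.4% and 31.8% (median log2 change -0.30). SLC39A14, an importer of zinc, iron and manganese, was at 217 ± 21.6 CPM with hemin alone and at 15.4 ± 5.58 CPM with nilotinib and hemin (log2 change -3.81, adjusted p = 6.30e-10). SLC39A8, its close relative, went the other way, from 58.2 ± 9.11 to 321 ± 73.0 CPM (log2 change 2.46, adjusted p = 2.06e-07). SLC39A3 rose by 0.64 and SLC39A9 had a change of -1.25. Without hemin, nilotinib raised 1 of 13 (SLC39A8, by 2.33) and lowered 4 (SLC39A14 at -3.44 and SLC39A11 at -1.81 among them), against 20.7% and 21.8%, with a median of -0.17. Among the zinc transporters with a mean of at least 100 counts, SLC30A10 had the largest rise and SLC39A14 the largest fall both with and without hemin.

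Hemin without nilotinib raised 3 and lowered 2 of the 9 SLC30 genes, against 25.7% and 27.8% of all genes (median log2 change -0.03, against -0.05). SLC30A7 rose by 1.51 and SLC30A10 had a change of -1.15. Of the 13 SLC39 genes it raised 4 and lowered 3, also near those shares (median 0.39), with SLC39A6 at 1.74, SLC39A9 at 1.0, SLC39A3 at -1.09 and SLC39A11 at -1.05. Hemin with nilotinib changed 0 of 9 SLC30 genes and raised 1 of 13 SLC39 genes, SLC39A9, by 0.48 (adjusted p = 0.0224), where 3.52% of all genes were called higher and 2.28% lower. For the interaction the calls were 2 higher and 3 lower among the SLC30 genes, and 2 higher and 2 lower among the SLC39 genes, against 17.1% and 13.0% of all genes.

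Of 13 other metallothionein genes and pseudogenes, only the pseudogene MT1XP1 was tested. It was at 0.252 ± 0.0644 CPM in mock DMSO, 0.0639 ± 0.0305 in mock nilotinib, 1.07 ± 0.319 in hemin DMSO and 0.148 ± 0.0137 in hemin nilotinib. Its counts were 12, 9 and 17 in mock DMSO and 3, 1 and 3 in mock nilotinib. With hemin they were 36, 23 and 54 in DMSO and 5, 5 and 7 in nilotinib. Nilotinib lowered MT1XP1 without hemin (log2 change -1.92, adjusted p = 0.0100) and with hemin (-2.82, adjusted p = 4.67e-05). Hemin without nilotinib raised it by 2.07. Counts this low leave the size of these changes uncertain. It may have passed the count filter through hemin DMSO, where it was highest. The other 12, which include MT3 and MT4, had 0 to 31 counts each over all libraries.

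The genes whose levels ran most alike over the 12 libraries were found among 12492 genes by Pearson correlation of log2(CPM + 0.5), as a description, since the libraries fall into 4 treatment groups and share their depth scaling. Nearest to MTF1 were XPNPEP3 and SPATA2 (r = 0.995 each) and SPTY2D1 (r = 0.994). SPATA2 was at 15.2 ± 1.84 CPM in mock DMSO and 13.3 ± 1.13 CPM in mock nilotinib. It was at 79.4 ± 12.9 CPM with hemin alone and at 17.2 ± 1.24 CPM with hemin and nilotinib. Nearest to SLC30A1 were FHDC1 (r = 0.936), WBP4 (r = 0.932) and UGCG (r = 0.925). Nearest to MT2A were CORO1C (r = 0.882), TMEM135 (r = 0.873) and FAM234B (r = 0.853), so MT2A had the least close neighbours of the 3.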

How the data were processed

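RNA-seq was done on 12 libraries of K562 cells (NovaSeq, 150-base paired-end reads). The authors deposited raw counts per gene and FPKM per gene and library, made by their sequencing service. The build GRCh38.p12 is named in the submitters' processing notes, and the aligner, the counter and strandedness are not given in the sources used here. The deposited FPKM are counts per kilobase of the listed gene length divided by 1 constant per library, as tested on the file, and were used for levels between genes and in an alternative. The deposited table of mean FPKM per group was not used, and group means were computed from the libraries.

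Counts were fitted in R 4.3.3 with edgeR 4.0.16 (filterByExpr, TMM, quasi-likelihood, 1 mean per group over all 12 libraries), with two-sided p adjusted by Benjamini-Hochberg over 20821 genes. SE is the log2 change divided by the square root of F. The script was checked on simulated data. The biological coefficient of variation was 0.198, and p-values measure the spread between these libraries. With 3 against 3 libraries an exact permutation test cannot go below 0.1, so no single gene was tested that way. Intervals of summed counts (95%) cover counting error only.

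Members, lists and tests were chosen with earlier results of these data known. All members are named, and from each list at most the 2 largest rises and 2 largest falls past the threshold in a comparison, with a mean of at least 100 counts (10 for metallothioneins). Of the markers of other cell types, 1 is not reported here. Exon overlaps came from GENCODE 29. Alternatives were DESeq2 1.42.0, RLE factors, other filters, the compared libraries alone, a replicate block, limma-trend (limma 3.58.1) on FPKM and each library left out. Deviations from the group means were correlated between same-numbered libraries. The values were 0.131 to 0.141 between the mock groups and 0.332 to 0.373 between the nilotinib groups. Libraries with different numbers were not compared in this way, so these values do not show whether the numbers pair the groups. Values near those of the mock groups also occurred between the DMSO groups (0.0941 to 0.130) and between mock nilotinib and hemin DMSO (0.103 to 0.152). The main fit held no replicate block.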

Additional observations from a re-analysis of the deposited data

Results flagged for a closer look

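For 4 genes the effects of nilotinib in the presence and the absence of hemin differed by the edgeR interaction test with Benjamini-Hochberg adjustment. The groups with hemin were also collected 24 h later, and the 2 cannot be told apart. The difference was -1.67 on the log2 scale for MTF1 (adjusted p = 3.39e-05), where nilotinib gave -1.87 with hemin and -0.21 without. It was -1.41 for SLC30A1 (adjusted p = 0.0115), where nilotinib gave 0.45 with hemin and 1.86 without. It was 2.12 for MT2A (adjusted p = 0.0193), where nilotinib gave 2.10 with hemin and -0.02 without. It was 4.88 for MT1X (adjusted p = 0.00966), where nilotinib gave 0.42 with hemin and -4.46 without, at 5 counts in all of mock nilotinib.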

How the results depend on the processing

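The counts of genes called lower by nilotinib with hemin, higher by nilotinib without hemin, either way by hemin without nilotinib, lower by hemin with nilotinib and lower in the interaction were the same under all alternatives. No called value changed sign. For nilotinib with hemin, the genes called higher were 1, and 2 with all genes that have at least 1 count or with the replicate block, and 1 to 2 with a library left out. With that block SLC30A1 was at 0.56 (adjusted p = 0.0422), but a pairing of these groups by number was not shown, with correlations of -0.0556 to 0.266. For nilotinib without hemin, the genes called lower were 1, and 3 with all genes, 2 with the replicate block, 0 with a minimum of 10 counts per library, where MT1X is not tested, and 0 with limma-trend on log2(FPKM + 1). They were 2 without replicate 1 of all 4 groups, an alternative chosen after seeing the data. For hemin with nilotinib, the genes called higher were 2, and 4 with all genes, with the replicate block and without replicate 1 of all 4 groups, and 3 with DESeq2. They were 0 in the libraries compared alone, where only 3 of the genes were tested. With limma-trend on log2(FPKM + 1) or log2(FPKM + 0.1) they were also 0, and they were 0 to 4 with a library left out. For the interaction, the genes called higher were 2, and 4 with all genes, 1 with a minimum of 10 counts per library, 0 with limma-trend at either pseudocount, and 1 to 2 with a library left out. The causes were not tested. With all genes fitted, MT1E joined the calls, at an adjusted p of 0.0310 for nilotinib without hemin, 0.00663 for hemin with nilotinib and 0.0217 for the interaction. That edgeR fit also gave MT2A an adjusted p of 1.07e-29 for nilotinib with hemin, against 0.000829 in the main fit. For SLC30A1 and nilotinib without hemin it gave 1.10e-27, against 5.59e-05. Its adjusted p for MT1E, with 0 counts in each mock nilotinib library, therefore carry little weight. Apart from SLC30A1 here and the calls of MT1G and MTF1 given above, the replicate block changed no call of the 5 genes. Totals of at most 21 counts per group limit MT1A, MT1E, MT1F and MT1H, and a fold on log2(FPKM + 1) understates changes of MT1X and MT1G.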

Other observations

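Genes that handle copper, the other metal bound by metallothioneins, were all tested (11 of 11). Nilotinib with hemin raised 4 and lowered 3 of them, near the 32.4% and 31.8% of all genes called (median log2 change -0.18, against 0.02 for all genes). ATP7B, a copper-exporting ATPase, was at 19.1 ± 1.82 CPM with hemin alone and at 102 ± 17.8 CPM with nilotinib and hemin (SD, n = 3), a log2 change of 2.42 (adjusted p = 1.14e-09). CCS, which hands copper to superoxide dismutase, rose by 1.67 (adjusted p = 1.75e-06). SLC31A1, the high-affinity copper importer, was at 255 ± 28.2 and 104 ± 6.66 CPM, a change of -1.30 (adjusted p = 3.77e-07), and COX17, which delivers copper to cytochrome c oxidase, had a change of -0.83 (adjusted p = 0.000972).

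Without hemin, nilotinib raised 3 and lowered 2 of the 11, against 20.7% and 21.8% of all genes (median 0.06). CCS rose by 1.13 and ATP7B by 0.83, while SLC31A1 was at -0.35 and SCO1, a copper chaperone of mitochondria, at -0.86. Hemin without nilotinib raised 5 and lowered 4, against 25.7% and 27.8% (median 0.28), with SLC31A1 at 0.94, COX17 at 0.67, ATP7B at -1.63 and SCO1 at -1.01. Hemin with nilotinib changed 0 of 11, against 3.52% higher and 2.28% lower, and the interaction was called higher for 3 and lower for 3, against 17.1% and 13.0%. All calls are by edgeR with Benjamini-Hochberg adjustment over all genes tested.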
